A study of Saccharomyces cerevisiae and Saccharomyces paradoxus with 16 samples.

Results

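Cryptic unstable transcripts (CUTs) of the Saccharomyces paradoxus strain N17 were set against their counterparts in the Saccharomyces cerevisiae strain Sigma1278b, in cells without Rrp6. The members came from the published list of CUTs conserved in every strain examined, read as ordered pairs of an N17 CUT and a Sigma1278b CUT. There were 434 such pairs on the minus strand and 421 on the plus strand, out of 2661 CUTs annotated in N17 and 2393 in Sigma1278b, and 9377 in the annotations of 4 strains together. A CUT had to be seen in every strain to enter the list, so these pairs say nothing about transcripts that 1 species lacks. The question was how far the amount of a CUT differs between the species when the CUT itself is kept.

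CUTs are capped RNA polymerase II transcripts that often start in the nucleosome free regions at the ends of genes. Their transcription is ended by the Nrd1-Nab3-Sen1 complex, TRAMP gives them a short tail through its polymerase Trf4, and the nuclear exosome degrades them. Rrp6 is a nuclear exonuclease of the exosome, and CUTs pile up in cells that lack it, so they are usually detected there. The level without Rrp6 is that of poly(A) RNA at steady state and does not measure how much of a CUT is made.

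Strand-specific RNA-seq of poly(A) RNA was done on mid-log cultures at 30 °C in rich medium, and the 16 libraries of the series covered 4 strains with and without RRP6. The N17 rrp6 deletion cells carried rrp6::NatMX and HO::lox-Kan-lox, and N17 WT cells carried HO::lox-Kan-lox. JAY291, a second S. cerevisiae strain used here for the spread within the species, was compared as rrp6::KanMX cells and as its WT. The Sigma1278b rrp6 deletion cells carried rrp6::KanMX, his3delta1, leu2delta0 and ura3delta0, whereas Sigma1278b WT cells carried ura3-52, leu2::hisG and his3::hisG, so this mutant and its WT, which also differ in mating type, are not isogenic. The level of RRP6 itself was not analysed here. Both replicates of N17 went through repeated Dynabead poly(A) selection, while in JAY291 and Sigma1278b 1 replicate per genotype had a single Oligotex round. Both N17 rrp6 deletion libraries also had fewer mapped reads than either Sigma1278b library of that genotype. Species, marker, poly(A) method and depth therefore differ together and cannot be told apart in these data.

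Each value is the authors' mean coverage of a CUT, in reads per nucleotide scaled to 1e+07 mapped reads and averaged over 2 libraries. The annotations hold that mean alone, with neither an SD nor the read number, so no difference below has a replicate check or a counting error, and no test was run. CUTs of 1 strain share their libraries and are not replicates of that strain. The list was collinear: all pairs had the same chromosome label and strand in both strains, and none of the 823 steps from a pair to the next on its strand went backwards in either genome. The label XII stood over 2 separate stretches of the list, 144 pairs in all, so a pair labelled XII may lie on another chromosome. Coordinates below are those of each strain's own assembly, with starts counted from 1. The sources used here hold no gene positions for these assemblies, so genes at the pairs are not known. The paper states that reads of a CUT and of a gene overlapping it on the same strand cannot be told apart. Coverage of a CUT may therefore include RNA of such a gene.

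Oligo sites for which the study had a separate S. paradoxus oligo are printed as examples of sequence at conserved CUTs in both species. Some of its oligos served either species, so sites with separate oligos may differ more than others and do not give the rate at which paired loci differ. The study used them for strand-specific RT-qPCR of CUTs that run antisense to YKU80 (YMR106C), whose product binds DNA ends, and to NNR2 (YKL151C), a dehydratase that repairs damaged NADHX. In the S. cerevisiae reference assembly R64 the sites lie inside these genes, at chrXIII:479197-479219 on the minus strand and at chrXI:165187-165208 on the plus strand and chrXI:165300-165321 on the minus strand. Capitals mark the letters that differ between the S. paradoxus oligo and R64, and the sequences read:
YKU80 site, S. paradoxus oligo: TgtgctaccgtccAttctagtcg
YKU80 site, R64: AgtgctaccgtccGttctagtcg
YKL151C first site, S. paradoxus oligo: ttgAccGccCacTctcttgttg
YKL151C first site, R64: ttgGccTccTacCctcttgttg
YKL151C second site, S. paradoxus oligo: ggcagcttgatcgcAcaAgaaC
YKL151C second site, R64: ggcagcttgatcgcCcaGgaaT

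Counted from 1 at the 5′ end of each oligo, with the R64 base first, the changes are A1T and G14A at the YKU80 site, G4A, T7G, T10C and C13T at the first YKL151C site, and C15A, G18A and T22C at the second. Together 9 of 67 letters differ at these 3 sites. Which of the pairs lie at these genes was not worked out, since the pairs have positions in other assemblies.

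Coverage without Rrp6 was of the same order in both species. The N17 rrp6 deletion had a median of 7.15 over the pairs (quartiles 3.98 and 13.2, range 0.296 to 1890), and the Sigma1278b rrp6 deletion a median of 7.95 (quartiles 5.0 and 14.1, range 1.62 to 725). As log2 ratio of N17 over Sigma1278b with 1 added to both coverages, the median pair stood at -0.21, a 0.864-fold level in N17. This median was subtracted from every ratio below, so "higher" and "lower" are relative to the typical pair. After that, 138 pairs (16.1%) were at least 2-fold higher in N17, 144 (16.8%) were at least 2-fold lower in N17, and 573 (67.0%) lay within 2-fold. Without subtraction of the median the split was 109 pairs (12.7%) higher and 191 (22.3%) lower. These shares are the background against which each group of pairs is read.

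The ratio spread broadly on both sides, farther on the high side. Its SD was 1.12 on the log2 scale, its quartiles were -0.68 and 0.70, and the extremes were 24.2-fold higher and 12.3-fold lower in N17. At least 4-fold differences were seen for 44 pairs that were higher and 24 that were lower in N17. Pairs at the edge of 2-fold show what the threshold separates. CUT8748/CUT3665 was just past 2-fold on the high side with 16.9 in N17 and 9.27 in Sigma1278b, and CUT8977/CUT4101 fell just short of it with 32.8 in N17 and 18.6 in Sigma1278b. On the low side CUT7969/CUT4058 was just past 2-fold with 6.61 in N17 and 16.6 in Sigma1278b, and CUT6848/CUT3260 fell just short with 2.17 in N17 and 6.32 in Sigma1278b.

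**Figure D1:**
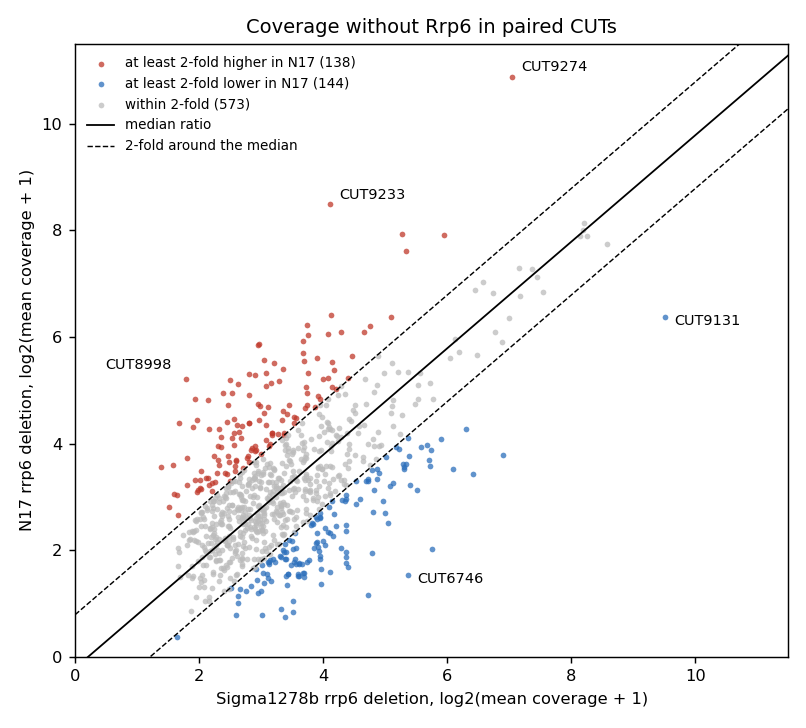
Mean coverage of each CUT pair in N17 rrp6 deletion cells (vertical) and in Sigma1278b rrp6 deletion cells (horizontal), both as log2 of coverage plus 1, with 1 point per pair, the median ratio as a solid line and 2-fold around it as dashed lines. Most points (573) lie between the dashed lines, 138 lie above and 144 below, and CUT9233 and CUT9274 stand farthest above at 24.2- and 16.5-fold.

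The same pairs differed less within S. cerevisiae. For JAY291 over Sigma1278b the SD was 0.72 and the interquartile range 0.84, against an SD of 1.12 and an interquartile range of 1.37 for N17 over Sigma1278b. In JAY291, 59 pairs (6.90%) were at least 2-fold higher than in Sigma1278b, 45 (5.26%) were at least 2-fold lower, and 751 (87.8%) lay within 2-fold. At 4-fold the counts in JAY291 were 9 higher and 4 lower. Both comparisons use the Sigma1278b values, and the difference in spread was not tested, since no value has a replicate. JAY291 also shares the poly(A) methods of Sigma1278b, which N17 does not. The part of poly(A) method and depth in the wider spread of N17 was not tested.

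**Figure D2:**
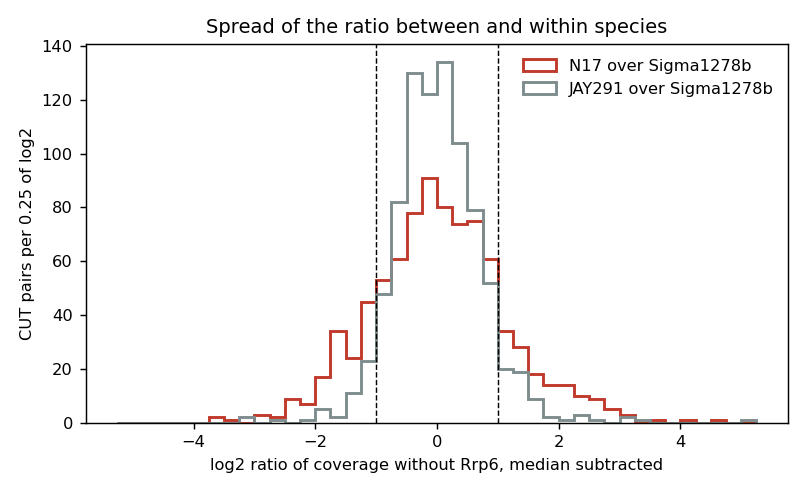
Number of CUT pairs per 0.25 of the log2 ratio of coverage without Rrp6, for N17 over Sigma1278b and for JAY291 over Sigma1278b, each with its own median subtracted and 2-fold marked by dashed lines. The N17 curve is the wider, with 573 pairs within 2-fold in N17 and 751 in JAY291.

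The strongest single difference was CUT9233/CUT4046 on chromosome V, minus strand. It lies at chrV:444337-446197 in N17 and chrV:447429-447823 in Sigma1278b. Its coverage was 359.7 in the N17 rrp6 deletion, 13.1 in the JAY291 rrp6 deletion and 16.2 in the Sigma1278b rrp6 deletion, so N17 stood alone and both S. cerevisiae strains were close. The centred log2 ratio was 4.60, or 24.2-fold. In WT cells the order was the same, with 16.3 in N17, 0.327 in JAY291 and 0.795 in Sigma1278b. The N17 transcript was also annotated 4.71 times as long, at 1861 nt in N17 and 395 nt in Sigma1278b.

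CUT9274/CUT4359 on chromosome X, minus strand (chrX:131199-132197 in N17, chrX:147489-147715 in Sigma1278b), was the most abundant CUT of all pairs. It had 1890 in the N17 rrp6 deletion, 151 in JAY291 and 131 in Sigma1278b, a centred ratio of 16.5-fold. In WT cells it reached 41.7 in N17 and 10.2 in Sigma1278b. It too was longer in N17, 4.40 times its 227 nt in Sigma1278b. Next came CUT8998/CUT2210 (label XII), with 36.0 in the N17 rrp6 deletion, 9.46 in JAY291 and 2.46 in Sigma1278b. For this pair JAY291 lay between N17 and Sigma1278b.

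The other 7 of the 10 highest pairs were 7.31- to 8.74-fold higher in N17. CUT9088/CUT3347 on chromosome VIII had 57.8 in the N17 rrp6 deletion, 11.2 in JAY291 and 6.78 in Sigma1278b, although its N17 annotation was shorter, at 404 nt in N17 and 910 nt in Sigma1278b. CUT9085/CUT3338 on chromosome VII had 57.1 in N17, 6.65 in JAY291 and 6.73 in Sigma1278b. CUT8930/CUT2315, also on chromosome VII, had almost the same length in both species (329 nt in N17, 326 nt in Sigma1278b) and coverage of 27.5 in N17, 4.29 in JAY291 and 2.80 in Sigma1278b. In each of these pairs N17 was far above both S. cerevisiae strains.

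Some of the highest pairs were already abundant in N17 cells that have Rrp6. CUT8995/CUT2905 on chromosome III (chrIII:247530-248604 in N17, chrIII:265516-265801 in Sigma1278b) had 35.4 in the N17 rrp6 deletion and 26.2 in N17 WT, against 4.64 in the Sigma1278b rrp6 deletion and 0.211 in Sigma1278b WT. In N17 coverage of this region thus rose little on loss of Rrp6, with a response of 0.42 on the log2 scale in N17 and 2.22 in Sigma1278b. The part of any gene on the same strand in this coverage was not tested. CUT8834/CUT2135 (label XII) was alike, at 20 without Rrp6 and 9.23 in WT in N17, against 2.19 without Rrp6 and 0.0821 in WT in Sigma1278b. CUT9213/CUT4269 on chromosome IV was the opposite case, with 244.9 in the N17 rrp6 deletion and 3.35 in N17 WT, against 37.5 in the Sigma1278b rrp6 deletion and 1.01 in Sigma1278b WT. The last of the 10, CUT8922/CUT2521 on chromosome XV, had 27.1 in the N17 rrp6 deletion, 6.36 in JAY291 and 3.44 in Sigma1278b. Among these 10 pairs, WT coverage was on the same side in 10, at least 2-fold so in 8, and the CUT was longer in N17 in 7.

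At the other end, CUT6746/CUT4287 on chromosome III, plus strand (chrIII:185578-185778 in N17, chrIII:203641-203854 in Sigma1278b), had 1.90 in the N17 rrp6 deletion, 64.7 in JAY291 and 40.3 in Sigma1278b. The centred log2 ratio was -3.62, or 12.3-fold lower in N17, and the lengths were close, at 201 nt in N17 and 214 nt in Sigma1278b. CUT7143/CUT4318 on chromosome I was 11.6-fold lower, with 3.04 in N17, 47.7 in JAY291 and 53.2 in Sigma1278b. Its WT coverage was 0.140 in N17, 23.5 in JAY291 and 22.6 in Sigma1278b, so both S. cerevisiae strains held much of this RNA with Rrp6 present and N17 held almost none.

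CUT9355/CUT4200 on chromosome II differed in the mutants, and its WT coverage was too low to show a difference. Its coverage was 1.22 in the N17 rrp6 deletion, 13.9 in JAY291 and 25.3 in Sigma1278b, while WT coverage was 0.0355 in N17, 0.0436 in JAY291 and 0.0557 in Sigma1278b. CUT9131/CUT4379 on chromosome XV held the highest Sigma1278b value of all pairs. It had 81.7 in the N17 rrp6 deletion, 307 in JAY291 and 725 in Sigma1278b, and stayed abundant in N17 although it was 7.59-fold lower there.

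In a pair of low cases the N17 value was shared by JAY291. CUT8575/CUT4355 on chromosome XIV had 12.7 in the N17 rrp6 deletion, 14.4 in JAY291 and 118 in Sigma1278b. CUT8350/CUT4346 on chromosome XI had 9.82 in N17, 14.1 in JAY291 and 84.7 in Sigma1278b. Here Sigma1278b was the strain apart, and its WT coverage of 27.7 and 35.4 for these CUTs was also far above N17 WT, with 1.12 and 1.74, and JAY291 WT, with 0.318 and 0.705. Hence a low ratio of N17 to Sigma1278b does not by itself place the difference in N17. CUT7087/CUT4209 on chromosome XIV differed in all 3 strains, with 2.87 in the N17 rrp6 deletion, 250.5 in JAY291 and 26.7 in Sigma1278b.

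The remaining lowest pairs were CUT6858/CUT4135 on chromosome X (2.20 in N17, 31.8 in JAY291, 20.1 in Sigma1278b), CUT9316/CUT3772 on chromosome XV (0.80 in N17, 24.9 in JAY291, 10.4 in Sigma1278b) and CUT9376/CUT3692 on chromosome XIV (0.673 in N17, 17.4 in JAY291, 9.49 in Sigma1278b). Of the 10 lowest pairs, WT coverage was on the same side in 9, at least 2-fold so in 5, and the CUT was shorter in N17 in 5. CUT9355, CUT9316 and CUT9376 belonged to a block of N17 annotations listed out of coverage order, described further on.

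**Figure D3:**
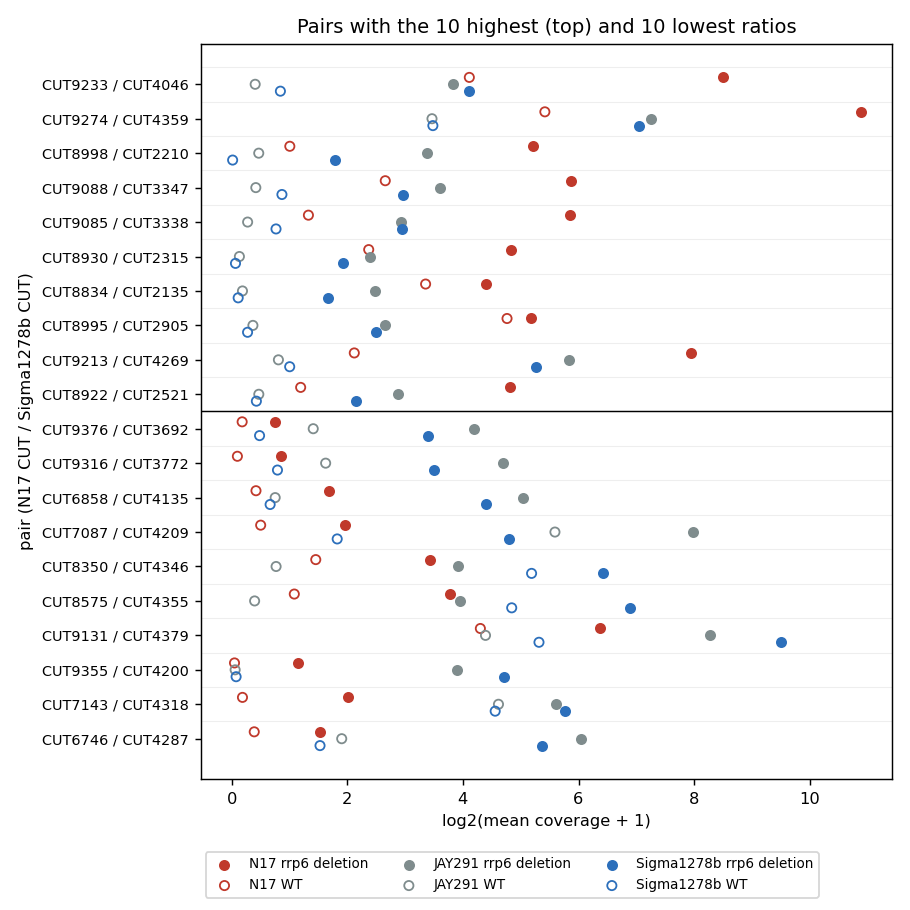
Coverage, as log2 of the mean plus 1, of the 10 pairs with the highest ratio of N17 over Sigma1278b (top) and the 10 with the lowest (bottom), in rrp6 deletion cells (filled) and WT cells (open) of N17, JAY291 and Sigma1278b. In the upper rows the filled N17 point lies right of both S. cerevisiae strains, and in the lower rows left of both, with JAY291 close to N17 only for CUT8575 and CUT8350.

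Abundant CUTs could also be alike in both species. CUT9210/CUT4372 on chromosome XVI had 236.9 in the N17 rrp6 deletion, 432 in JAY291 and 280.2 in Sigma1278b, a centred log2 ratio of -0.03. CUT9217/CUT4373 on chromosome VII had 257 in N17, 196.5 in JAY291 and 290.0 in Sigma1278b, with a ratio of 0.04. CUT9016/CUT4303 on chromosome IV had 39.0 in N17 and 46.3 in Sigma1278b, and near-equal lengths of 813 nt in N17 and 797 nt in Sigma1278b. For CUT8925/CUT4258 (label XII) the values were 27.4 in N17 and 33.9 in Sigma1278b, with lengths of 1070 nt in N17 and 1068 nt in Sigma1278b. CUT9096/CUT4337 (label XII) completed the 5 pairs nearest to 0, with 61.6 in N17 and 69.1 in Sigma1278b.

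By the mean of the log2 coverages of both strains, the 5 most abundant pairs were those of CUT9274, CUT9217 and the following 3, and apart from CUT9274 these lay within 2-fold. CUT9370/CUT4374 on chromosome XIV had 279.6 in the N17 rrp6 deletion and 294.7 in Sigma1278b, with WT coverage as high as 192 in N17 and 105 in Sigma1278b. CUT9211/CUT4375 had 238 in N17 and 303 in Sigma1278b, and CUT9204/CUT4377 had 213 in N17 and 381 in Sigma1278b, both on chromosome X. The pair of CUT9204 reached 713 in JAY291, so the strains of S. cerevisiae were farther from each other than N17 was from Sigma1278b.

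Over all pairs, however, the ratio spread more among the abundant CUTs, and more of them were higher in N17. In 5 equal groups of 171 pairs by mean log2 coverage over both strains, from the weakest to the most abundant, the SD of the ratio was 0.77, 0.99, 1.07, 1.22 and 1.37. The share at least 2-fold higher in N17 was 2.34%, 9.94%, 15.2%, 25.7% and 27.5% in the same order, beside 16.1% of all pairs. The share at least 2-fold lower in N17 was 15.8%, 21.1%, 16.4%, 12.9% and 18.1%, beside 16.8% of all pairs, with no such order. The 1 added to each coverage draws the ratios of weak pairs towards 0. The groups were also cut on the same coverages that form the ratio. Apart from CUTs listed out of order (described further on), the lowest coverage was 1.85 in N17 and 1.86 in Sigma1278b. Only in N17 pairs out of that order, 41 in all, did N17 coverage lie under its value. Weak pairs thus had little room to differ, and the order of the SDs and of the higher shares is in part set by the grouping.

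In WT cells fewer pairs passed 2-fold than without Rrp6. Median WT coverage was 0.517 in N17 and 0.671 in Sigma1278b, and a WT coverage of 0 was listed for 43 pairs in N17 and 6 in Sigma1278b. For WT coverage, 63 pairs (7.37%) were at least 2-fold higher in N17 and 76 (8.89%) at least 2-fold lower, around a median log2 ratio of -0.12 that was subtracted. Both WT medians lie under the 1 added to each coverage, which draws WT ratios towards 0. Of the 453 pairs with WT coverage under 1 in both strains, 1 was at least 2-fold higher in N17 WT and 0 lower. The lower WT counts are therefore no measure of smaller differences in WT cells. Across all pairs, the WT ratio and the rrp6 deletion ratio had a Pearson r of 0.61 and a Spearman rho of 0.57. Without the 2 pairs farthest from the median ratio, r was 0.60 and rho 0.56 over 853 pairs. The points share the annotated boundaries, the genome and the mappability of each CUT between genotypes, and WT and mutant come from separate libraries. CUTs were also called by coverage without Rrp6 about 2-fold or more above WT, which in part ties the ratios together.

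CUTs that were visible in WT cells of only 1 species tended to have more RNA without Rrp6 in that species. Visible here means a WT coverage of at least 1. The study called CUTs where coverage without Rrp6 was about 2-fold or more above WT in each strain. A CUT visible in a WT strain thus tends to have more coverage without Rrp6 there by selection, and the shares below are in part built in. Of 100 pairs visible in N17 WT alone, 48 (48.0%) were at least 2-fold higher in the N17 rrp6 deletion and 2 were at least 2-fold lower. Their median coverage without Rrp6 was 11.6 in N17, 7.41 in JAY291 and 6.39 in Sigma1278b. Of 139 pairs visible in Sigma1278b WT alone, 4 were at least 2-fold higher in the N17 rrp6 deletion and 52 (37.4%) were at least 2-fold lower. Here the median without Rrp6 was 6.02 in N17, 10.2 in JAY291 and 11.8 in Sigma1278b.

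The 163 pairs visible in both WT strains had 34 higher and 24 lower in N17. The 453 visible in neither had 52 higher and 66 lower, both smaller shares than the 16.1% and 16.8% of all pairs. Among the 163, the higher share lay above that of all pairs and the lower share below it. Differences without Rrp6 were thus less frequent among CUTs visible in neither WT strain, but were not confined to CUTs that WT cells show. The group visible in neither had a median coverage without Rrp6 of 5.07 in N17 and 6.03 in Sigma1278b, beside 7.15 and 7.95 over all pairs. The part of this lower coverage in its smaller shares was not tested.

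**Figure D4:**
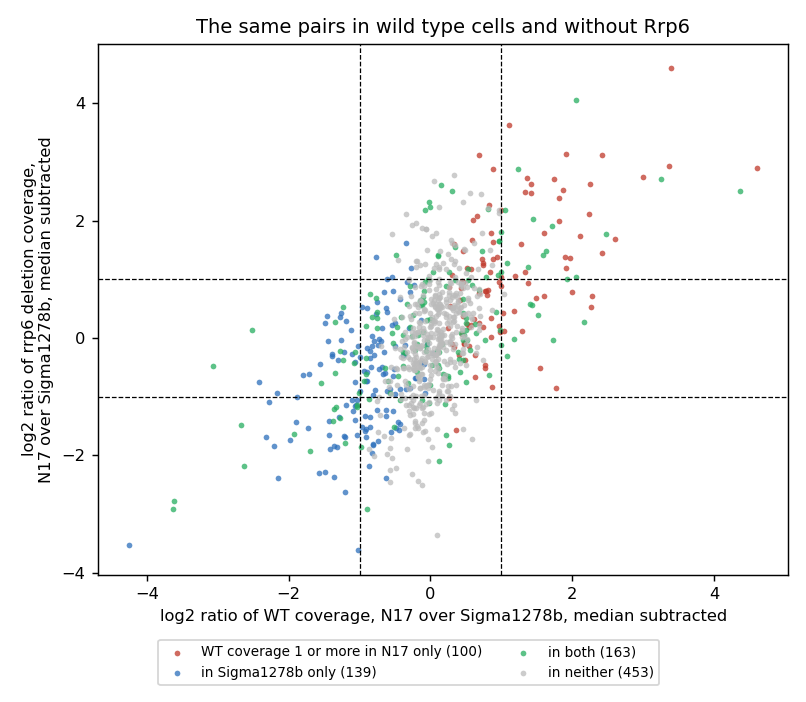
Log2 ratio of N17 over Sigma1278b for each pair in rrp6 deletion cells (vertical) and in WT cells (horizontal), each with its median subtracted and 2-fold marked by dashed lines, coloured by which WT strain had a coverage of at least 1. The points run from lower left to upper right (r = 0.61), with the 100 pairs seen in N17 WT alone mostly at upper right and the 139 seen in Sigma1278b WT alone mostly at lower left.

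The response to loss of Rrp6, the log2 ratio of rrp6 deletion over WT coverage with 1 added to both, had a median of 2.2 in N17, 2.4 in JAY291 and 2.2 in Sigma1278b. Relative to the median difference of -0.08, 123 pairs (14.4%) responded at least 2-fold more in N17 and 106 (12.4%) at least 2-fold less. The response contains the rrp6 deletion coverage, so its difference and the ratio above are not independent. CUTs were called in each strain by such a rise over WT, so like medians of the response follow in part from the calling. Of the 138 pairs that were at least 2-fold higher in the N17 rrp6 deletion, 41 were also at least 2-fold higher in N17 WT and 73 had an at least 2-fold larger response in N17. Of the 144 lower pairs, 43 were at least 2-fold lower in N17 WT and 73 had an at least 2-fold smaller response in N17. In 34 of the higher and 31 of the lower pairs, neither measure alone passed 2-fold in either direction. The 1 added holds back the low WT coverages most, so the WT and response counts are not on an equal footing.

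For single pairs the response and the level could part company. CUT9181/CUT4430 on chromosome XV had 155 in the N17 rrp6 deletion and 164 in Sigma1278b, while WT coverage was 12.2 in N17 and 80.7 in Sigma1278b, so the response was 3.57 in N17 and 1.02 in Sigma1278b. CUT9159/CUT4368 on chromosome XVI was of the same kind, with 114 without Rrp6 and 6.93 in WT in N17, against 185 without Rrp6 and 71.3 in WT in Sigma1278b. In both pairs N17 and Sigma1278b were within 2-fold without Rrp6 and farther apart in WT cells. JAY291 was above both strains in these pairs, with 471 without Rrp6 and 191 in WT for the pair of CUT9181, and 299.5 without Rrp6 and 115 in WT for that of CUT9159.

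CUT8843/CUT2348 on chromosome IV and CUT8994/CUT3605 (label XII) responded more in N17 with low WT coverage in both species. CUT8843/CUT2348 had 20.6 in the N17 rrp6 deletion and 2.91 in Sigma1278b, with WT coverage of 0.153 in N17 and 0.209 in Sigma1278b. The pair of CUT8994 had 35.2 in the N17 rrp6 deletion and 8.74 in Sigma1278b, with WT coverage of 0.330 in N17 and 0.837 in Sigma1278b. In the opposite direction, CUT9355/CUT4200 had the largest shortfall, a response of 1.10 in N17 and 4.64 in Sigma1278b. CUT8758/CUT4267 on chromosome IV had a response of 1.76 in N17 and 4.47 in Sigma1278b, with WT coverage of 4.36 in N17 and 0.713 in Sigma1278b. CUT7235/CUT4006 on chromosome VIII had a response of 1.18 in N17 and 3.57 in Sigma1278b, with 3.29 in the N17 rrp6 deletion and 15.3 in Sigma1278b.

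The annotated length of a CUT varied more between the species than its typical value let on. Median lengths were 558 nt in N17, 514 nt in JAY291 and 566 nt in Sigma1278b. In N17, 163 CUTs (19.1%) were at least 1.5-fold longer than in Sigma1278b, 192 (22.5%) were at least 1.5-fold shorter, and 500 (58.5%) lay within 1.5-fold. In JAY291, 78 (9.12%) were at least 1.5-fold longer than in Sigma1278b, 169 (19.8%) at least 1.5-fold shorter, and 608 lay within. The boundaries come from a hidden Markov model whose calls closer than 450 bp were joined, so a length is that of a joined region and not of 1 measured RNA.

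Length and the level without Rrp6 were nearly unrelated across pairs. The log2 length ratio had a Pearson r of 0.11 and a rho of 0.09 with the rrp6 deletion ratio, and an r of 0.22 and a rho of 0.17 with the WT ratio (over all pairs, which share boundaries between genotypes). Of the 163 CUTs longer in N17, 33 (20.2%) were at least 2-fold higher and 21 (12.9%) at least 2-fold lower without Rrp6. Of the 192 shorter ones 29 (15.1%) were higher and 37 (19.3%) lower, beside 16.1% and 16.8% of all pairs. Among pairs within 1.5-fold in length, 76 of 500 (15.2%) were higher and 86 (17.2%) lower, close to the shares over all pairs. In WT cells 27 of the 163 longer CUTs were at least 2-fold higher in N17 and 13 at least 2-fold lower. Of the 192 shorter ones, 4 were higher and 23 lower in N17 WT, beside 7.37% higher and 8.89% lower of all pairs.

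The extreme lengths stood on weak or middling CUTs. CUT7201/CUT2463 on chromosome VII spanned 1606 nt in N17 and 125 nt in Sigma1278b at nearly the same coverage, 3.17 in N17 and 3.24 in Sigma1278b. CUT7641/CUT2322, also on chromosome VII, spanned 1463 nt in N17 and 167 nt in Sigma1278b, and CUT6909/CUT3495 on chromosome XI spanned 2586 nt in N17 and 341 nt in Sigma1278b. The most shortened were CUT9317/CUT2926 on chromosome XV (183 nt in N17, 1554 nt in Sigma1278b), CUT7538/CUT3694 on chromosome VII (208 nt in N17, 1701 nt in Sigma1278b) and CUT8666/CUT2685 on chromosome VI (176 nt in N17, 1380 nt in Sigma1278b). For CUT8666 the JAY291 counterpart was short as well, at 183 nt.

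The length classes moved towards the middle. The 28 CUTs under 200 nt in Sigma1278b had a median of 300.5 nt in N17, against 164.5 nt in Sigma1278b. The 183 CUTs of 1000 nt or more in Sigma1278b had a median of 774 nt in N17, against 1322 nt in Sigma1278b. Classes cut on 1 strain's own length move this way whenever lengths vary, so this is a description of the variation and not a trend to a common length.

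**Figure D5:**
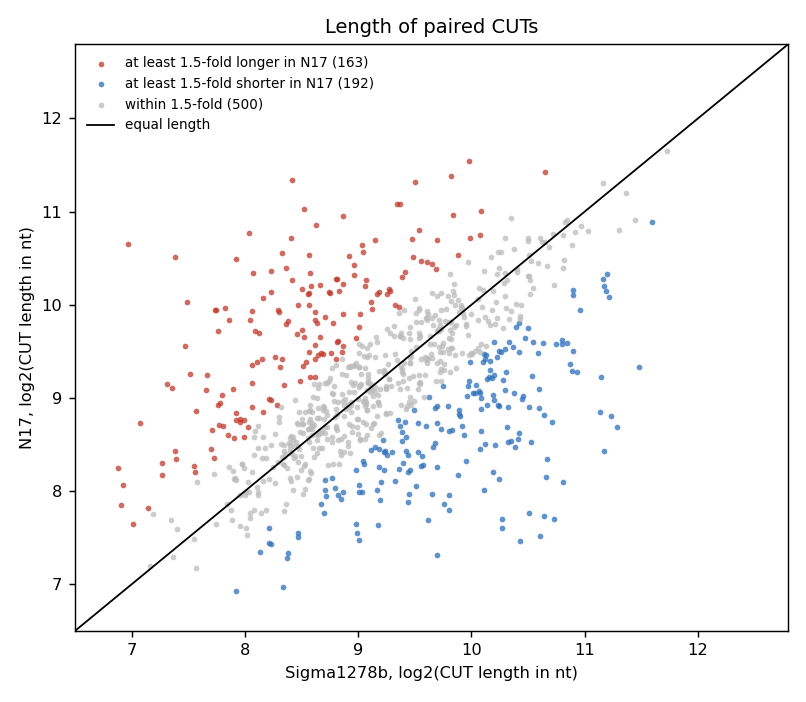
Annotated length of each CUT pair in N17 (vertical) and Sigma1278b (horizontal), both as log2 of nucleotides, with equal length as a line and pairs at least 1.5-fold longer or shorter in N17 coloured. In N17, 163 CUTs lie well above the line, 192 well below it, and 500 near it.

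A block of the N17 annotation, with many weak CUTs in it, stood apart from the rest. Most N17 CUTs were listed in order of rising coverage without Rrp6, starting at 1.85, and the block followed out of that order. It held the N17 CUT of 75 pairs, while the like block of the Sigma1278b annotation held the CUT of 42 pairs. By the study's methods, CUTs that had failed a strain's coverage filter were brought back where the other strains had them, and some annotations were edited by hand, but no entry is marked as such. The 75 pairs had a median coverage without Rrp6 of 1.79 in N17 and 6.63 in Sigma1278b, 30 (40.0%) were at least 2-fold lower in N17, and 3 (4%) at least 2-fold higher. Of the 75, 41 lay under the lowest ordered N17 value, and 23 of those were at least 2-fold lower. The block was not of weak CUTs alone, since it also held CUT9370 with 279.6 in the N17 rrp6 deletion. Without all pairs that have such a CUT in either strain, 750 pairs remained, with a median log2 ratio of -0.13 instead of -0.21. Centred anew on that median, 15.9% of the 750 were higher and 16.8% lower. These shares are thus not on the centring used above and do not show that removal of the block left the lower share unchanged.

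The shares by strand lay close to those of all pairs, 16.1% higher and 16.8% lower, and the shares by chromosome varied more. Of 434 pairs on the minus strand 75 (17.3%) were at least 2-fold higher and 73 (16.8%) at least 2-fold lower in N17. Of 421 on the plus strand 63 (15.0%) were higher and 71 (16.9%) lower. By chromosome, XVI had 14 higher (21.2%) and 4 lower (6.06%) of 66 pairs, while XIV had 6 higher (10%) and 15 lower (25%) of 60. Chromosome IV, with the most pairs of any stretch, had 22 higher (20.6%) and 21 lower (19.6%) of 107. Small chromosomes gave few pairs, with 0 higher and 4 lower (40%) of 10 on I. On III, 2 (13.3%) were higher and 6 (40%) lower of 15. Differences between chromosomes were not tested.

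The ratios of adjacent pairs showed little relation to each other. Between neighbours in the list less than 1 kb apart in Sigma1278b, the ratios had a Pearson r of -0.06 over 97 neighbour pairs, and r was 0.01 at 1 to 5 kb (n = 196), -0.02 at 5 to 20 kb (n = 383) and -0.01 at 20 kb or more (n = 163). At 1 to 5 kb the value was 0.15 for neighbours on the same strand (n = 110) and -0.20 on opposite strands (n = 86). CUTs within 1 kb that point away from each other, which can share a nucleosome free region, had an r of -0.04 (n = 31). These correlations are descriptions over points from the same libraries.

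Each CUT was also classed by its CUT neighbours in its own strain, in this order: overlapping a CUT on the other strand, divergent (an opposite CUT starting within 300 bp upstream), tandem (a CUT on the same strand within 1000 bp) or single. Of 711 pairs outside the label XII, 463 (65.1%) fell in the same class in both strains, among them 375 single, 40 tandem, 34 overlapping and 14 divergent in both. Of the 104 CUTs that overlapped an antisense CUT in N17, 25 (24.0%) were at least 2-fold higher in N17, beside 16.1% of all pairs. In 13 of the 104 (12.5%) coverage was at least 2-fold lower in N17, beside 16.8% of all pairs. The response of the 104 was at least 2-fold larger in N17 in 32 and smaller in 7, beside 14.4% larger and 12.4% smaller of all pairs. Of these, 55 were single in Sigma1278b, with a median centred log2 ratio of 0.28. Of the 74 CUTs that overlapped an antisense CUT in Sigma1278b, 12 (16.2%) were at least 2-fold higher and 11 (14.9%) lower in the N17 rrp6 deletion. In WT cells 3 of the 74 were at least 2-fold higher and 17 lower in N17, beside 7.37% and 8.89% of all pairs. The response was at least 2-fold larger in N17 in 18 of the 74 and smaller in 7. The N17 annotation holds more CUTs in all, 2661 against 2393 in Sigma1278b, and the part of annotation density in these counts was not tested. Median coverage without Rrp6 of the 104 was 10.9 in N17 and 9.22 in Sigma1278b, beside 7.15 and 7.95 over all pairs. In WT cells 9 of the 104 were at least 2-fold higher and 17 lower in N17. Their median length was 651.5 nt in N17 and 475.5 nt in Sigma1278b, beside 558 and 566 nt over all pairs. The parts of abundance and length were not tested either.

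The differing pairs were also seen as groups, in which N17 and Sigma1278b without Rrp6 stand apart by the way the groups were made. The 138 higher pairs had median coverage without Rrp6 of 19.9 in N17, 7.26 in JAY291 and 6.33 in Sigma1278b, and WT medians of 1.33 in N17, 0.590 in JAY291 and 0.598 in Sigma1278b. The 144 lower pairs had 3.14 in N17, 13.1 in JAY291 and 14.3 in Sigma1278b without Rrp6, and 0.309 in N17, 1.05 in JAY291 and 1.23 in Sigma1278b in WT cells. The 573 pairs within 2-fold had 6.57 in N17, 8.01 in JAY291 and 7.20 in Sigma1278b without Rrp6. The pairs were grouped by N17 and Sigma1278b without Rrp6, and the JAY291 and WT values were not used for it. The WT values of N17 and Sigma1278b are still tied to the grouping in part, through shared boundaries and the calling of CUTs. In the higher and the lower group JAY291 medians lay nearer to those of Sigma1278b than to those of N17. Single pairs could do otherwise, as CUT8575 and CUT8350 did, and JAY291 shares the poly(A) methods of Sigma1278b.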

How the data were processed

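The deposited annotations give, per strain, the position of each CUT and 3 values. Coverage (signal) was made by the authors: rRNA reads were removed, the rest mapped uniquely to each strain's own genome with Bowtie 0.12.7, per-nucleotide coverage (bedtools 2.16.2) was corrected for first nucleotide and mappability bias, scaled to 1e+07 mapped reads, and averaged over 2 replicates and over the CUT. The deposited fold change (a ratio of rrp6 deletion over WT) is the authors' own comparison and was not used. CUTs came from their hidden Markov model, set to find about 2-fold or more coverage in the rrp6 deletion over WT. They were joined within 450 bp, with a minimum of 100 nt. The labels name the build sacCer3 for every sample, while the methods name each strain's own genome.

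The study's list of CUTs conserved in 4 strains was paired by row and joined to the annotations by identical chromosome, start, stop and strand, which matched 855 of 855 entries in N17 and in Sigma1278b. The sheet used for Sigma1278b is headed S288c but holds Sigma1278b positions. Ratios are log2 of N17 over Sigma1278b with 1 added, minus their median. Calls are at least 2-fold (coverage) or 1.5-fold (length). No test was possible with averaged values, and depth gives a precision that could not be computed. Named pairs are those with the 10 highest and 10 lowest ratios, the 5 highest mean coverages, the 5 ratios nearest 0 with both coverages at least 20, the 5 largest response differences and 3 largest length ratios in each direction, and those next to 2-fold. Pairs, classes and rules were chosen with earlier results of these data known. Python 3.11.15, pandas 2.3.3 and NumPy 2.4.6 were used. Alternatives changed the pseudocount, centring, filters, measure and threshold.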

Additional observations from a re-analysis of the deposited data

How the results depend on the processing

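The 2-fold counts rest on 1 averaged value per strain, so they carry no error. Of the results on all pairs, 45 values under 11 alternatives stayed within their tolerance (1.5 times for counts, 0.1 for the rest) and 9 did not. The SD of the ratio was 1.26 with 0.1 added, 1.27 with nothing added (808 pairs without a 0) and 1.66 for summed coverage (mean coverage times length), which brings the length difference into the ratio. Summed coverage also gave 26.1% of pairs at least 2-fold higher in N17, an r of 0.71 with the WT ratio and a median ratio of -0.32 before subtraction. That median was -0.05 with both coverages at least 5 (465 pairs). Each filtered set of pairs was centred on its own median. At 4-fold, 5.15% were higher and 2.81% lower in N17. Of the named pairs, 339 values stayed within tolerance and 32 moved, and 2 pairs past 2-fold turned sign under summed coverage: CUT6909/CUT3495 stood at 1.52 (-1.17 by mean coverage) and CUT8666/CUT2685 at -0.76 (1.87 by mean coverage), both with a large length difference. CUT9181/CUT4430, within 2-fold at 0.13, stood at -0.95 there. No paired analysis was possible because the annotations hold means over replicates only, and the replicates of N17 carry other numbers than those of Sigma1278b.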
